A study of Mus musculus with 6 samples.

Results

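The S100a10 complex was followed through 4 mouse genes: S100a10, which encodes the small protein p11, and the genes of its binding partners annexin A2 (Anxa2), the giant scaffold protein Ahnak and the chromatin protein Hltf. Members were the probe sets, groups of short probes against 1 transcript, whose platform annotation names exactly 1 of these genes, which gave 4 of 18193 genes and 13 of 45037 probe sets. Messenger RNA bound to tagged ribosomes was pulled down from mouse cortex (translating ribosome affinity purification, TRAP), amplified in 2 cycles from 15 ng and hybridised to Affymetrix arrays. The S100a10 group held 3 arrays from mice of line ES691, and the Glt25d2 group held 3 arrays from line DU9. Each line carries a transgene made from a bacterial artificial chromosome (BAC), in which the driver gene, S100a10 or Glt25d2, directs the tag to the cells that use it. All mice were untreated and came from a backcross of 3 to 5 generations from FVB to C57BL/6, and each array was labelled as 1 biological replicate. The study compared the 2 lines as cortical pyramidal cells, and its text states that the S100a10 BAC also labels cells that are not neurons.

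The S100a10 protein belongs to the S100 family of calcium-binding proteins but has lost the ability to bind calcium. A dimer of it joins 2 annexin A2 molecules, and this complex links membranes to the actin cytoskeleton, carries receptors and channels to the cell surface and binds plasminogen there. Ahnak and Hltf (also named Smarca3) both attach to the assembled complex. In brain, p11 is known for its part in serotonin signalling and in responses to antidepressants.

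Values are the authors' GCRMA intensities, and differences are log2 intensities of S100a10 minus Glt25d2 arrays from limma, adjusted by Benjamini-Hochberg over the 21291 probe sets whose mean reached 50 in at least 1 group. As deposited, 44.2% of these probe sets were called higher in S100a10 and 4.39% lower at an adjusted p under 0.05, and the median probe set differed by 0.55. Array medians over all probe sets were 20.4 to 21.3 in Glt25d2 and 35.5 to 35.8 in S100a10, so the deposited arrays do not share one distribution, and whether all 6 were normalized together is not given in the sources used. After quantile normalization of the 6 arrays the median was -0.058, with 16.8% called higher and 19.4% lower. After centring each array on its median it was -0.21, with 15.8% higher and 30.3% lower. The main results below are therefore also given under these 2 rescalings. Pairs of Glt25d2 arrays held identical values in 19.5% to 35.1% of probe sets, against 0.226% to 0.449% for pairs of S100a10 arrays, so the spread among Glt25d2 arrays rests on fewer distinct values.

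Markers of other cells moved with the comparison. Of all genes tested, 44.4% were called higher and 4.5% lower as deposited. The share was 18.4% in each direction after quantile normalization, and 16.4% higher and 31.3% lower after centring. Without Glt25d2 replicate 3 it was 55.0% higher and 6.13% lower. All 9 meningeal genes tested rose in S100a10 arrays, also after both rescalings, where 44.4% of all genes did as deposited. Their summed intensity was 246 to 406 in Glt25d2 and 38779 to 43319 in S100a10 arrays, and 7 of the 9 lay under 50 in every Glt25d2 array. Those 7 passed the filter only through the S100a10 arrays, so that they were called together is no support. Among those 7, Slc6a13, a GABA transporter gene, was at least 30.4-fold higher in S100a10 arrays, and the forkhead factor gene Foxd1 at least 165-fold, both counted against 50. Of 10 mural and fibroblast genes tested 8 rose and 1 fell, Rgs5 by 0.88 (SE 0.15), with sums of 800 to 981 and 8547 to 11051. After either rescaling 2 fell. Of the 11 listed, 7 lay under 50 in every Glt25d2 array, and those tested among them passed the filter only through the S100a10 arrays. Neuronal sums were high in both groups, at 69379 to 73581 and 94393 to 95561. Of 8 genes tested, 4 rose and none fell. The differences ran from Slc17a7, a vesicular glutamate transporter gene, at 2.12 (SE 0.45) to Camk2a, a kinase gene, at -0.43 (SE 0.20), which did not pass. Not every gene was high, as Slc17a7 read 134, 138 and 46.1 in the Glt25d2 arrays. The neuronal counts were 3 higher and 1 lower after quantile normalization and 2 and 3 after centring. Endothelial genes summed to 413 to 1261 and 449 to 526, with 1 of 4 tested higher and 1 lower, or 0 and 3 after either rescaling. Without Glt25d2 replicate 3 the endothelial counts were 1 and 3. Astrocyte genes summed to 9450 to 16511 and 17153 to 22732 (3 of 8 higher and 2 lower, or 2 and 2 after either rescaling and 5 and 3 without Glt25d2 replicate 3). Gfap, lower in each of these settings, lay under 50 in every S100a10 array and passed the filter only through the Glt25d2 arrays. Oligodendrocyte genes summed to 17770 to 24419 and 10104 to 16887, with 0 of 7 higher and 2 lower, or 3 lower with quantile normalization and 4 with centring. With Glt25d2 replicate 3 left out, 1 was higher and 4 were lower. Microglial sums were 316 to 525 and 541 to 849 (1 of 4 higher), and ependymal and choroid plexus sums 115 to 125 and 674 to 1010 (3 of 3 higher, or 1 of 3 after either rescaling). The microglial rise, Tmem119, and the ependymal and choroid plexus rises of Ttr and Rarres2 passed the filter only through the S100a10 arrays. Ttr read 36.9, 45.2 and 261 there, with only S100a10 replicate 3 above 50. No marker was listed at 0. The part of these cells in the results on S100a10, Anxa2 and Ahnak was not tested, and in pulled-down RNA of a whole tissue fewer cells of a type and less RNA per cell cannot be told apart.

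S100a10, the driver of 1 of the lines, was measured by 3 probe sets. The probe set 1456642_x_at had intensities of 3126, 3141 and 3444 for Glt25d2 and of 15496, 17898 and 13064 for S100a10. The groups did not overlap, and the lowest S100a10 array stood well above the highest Glt25d2 array. The difference was 2.25 (SE 0.14, limma adjusted p = 1.2e-04), or 4.75-fold. A second probe set, 1416762_at, read 696, 718 and 993 in Glt25d2 and 4706, 3574 and 4099 in S100a10 arrays. It differed by 2.37 (SE 0.19, limma adjusted p = 2.58e-04), so both probe sets gave similar sizes. In both, replicate 3 was the highest Glt25d2 array, and the groups lay apart. The third, 1439348_at, stayed under 50 in every array, between 6.07 and 15.1, and was not tested. The differences of the tested pair were 2.01 and 1.98 after quantile normalization and 1.48 and 1.60 after centring, and both passed under each alternative that gave a value. Both also read above 50 in every Glt25d2 array. A BAC can hold copies of the gene that drives it, so these values serve as a check of the group labels rather than as a separate result.

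**Figure D1:**
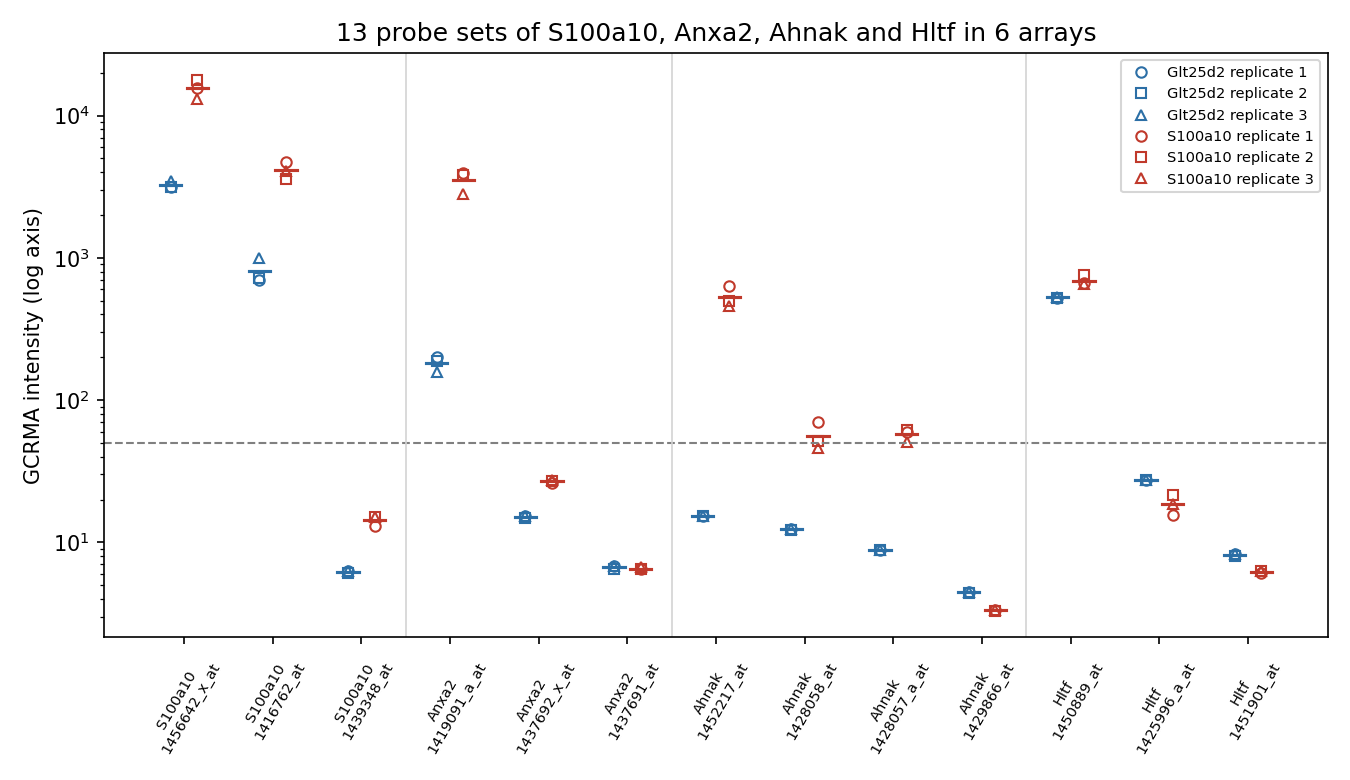
GCRMA intensity on a log axis for the 13 probe sets of the 4 genes; each symbol is 1 array (blue for Glt25d2, red for S100a10, shape for the replicate), short bars are group means and the dashed line marks 50. S100a10, Anxa2 and Ahnak each have a probe set whose red symbols all lie far above the blue ones, while the tested Hltf probe set reads 524 to 533 in blue and 659 to 754 in red.

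Anxa2 had a larger log2 difference than its partner S100a10. Its tested probe set, 1419091_a_at, read 201, 187 and 158 in the Glt25d2 arrays against 3965, 3838 and 2824 in the S100a10 arrays. The groups lay far apart, with replicate 3 lowest in each of them. The mean rose from 182 ± 22.2 to 3542 ± 625 (SD, n = 3 each). This is a 19.4-fold rise, or 4.28 on the log2 scale (SE 0.18, limma adjusted p = 2.87e-05). Only 270 of the 21291 probe sets differed by more in this direction. The difference was 3.73 after quantile normalization and 3.51 after centring, and it lay between 4.18 and 4.43 with any 1 array left out. Of the other probe sets, 1437692_x_at read 14.8 to 15.2 in Glt25d2 and 26.0 to 27.5 in S100a10 arrays, and 1437691_at read 6.45 to 6.84 over all arrays, with overlapping groups. Both lie under 50 and were not tested.

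Ahnak went from background-level readings to clear signal. The probe set 1452217_at read 15.4 in all 3 Glt25d2 arrays, with identical values, and 629, 497 and 460 in the S100a10 arrays. Every Glt25d2 array lay under 50, so the level was at least 10.5-fold higher in S100a10 arrays, counted against 50 on the deposited scale. The fitted difference of 5.09 (SE 0.14, limma adjusted p = 9.09e-06) rests on those low readings and was 3.39 with values under 50 set to 50. A second probe set, 1428057_a_at, read 8.80 in all 3 Glt25d2 arrays and 59.8, 61.9 and 51.2 in S100a10 arrays. The remaining tested one, 1428058_at, read 12.4, 12.2 and 12.4 against 70.5, 51.6 and 46.2. Every S100a10 array was above every Glt25d2 array in both, but at 46.2 to 70.5 they lay near 50, 1 of them under it, and the bounds were 1.15-fold and 1.10-fold. Their fitted differences were 2.71 (SE 0.11) and 2.16 (SE 0.17), with limma adjusted p = 2.66e-05 and 2.79e-04. With values under 50 set to 50 they were 0.20 and 0.18 and did not pass (limma adjusted p = 0.166 and 0.367, the highest over their alternatives; the lowest were 2.23e-06 and 2.87e-05). The fourth, 1429866_at, read 3.32 to 4.47 over all arrays, with every Glt25d2 array above every S100a10 array at these background readings. All 3 tested Ahnak probe sets passed the filter only through the S100a10 arrays, so that they were called together is no support for the result.

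Hltf, a DNA translocase and ubiquitin ligase that in the nucleus binds the p11 and annexin A2 complex, gave the smallest difference of the tested members. Its tested probe set, 1450889_at, gave 524, 524 and 533 for the Glt25d2 group, the first pair identical, and 662, 754 and 659 for the S100a10 group. All S100a10 arrays were above all Glt25d2 arrays, which was also so for 55.1% of all probe sets tested. The difference was 0.39 (SE 0.10, limma adjusted p = 0.0217), or 1.31-fold, and lay under the 0.55 of the median probe set, at percentile 40.75. Its direction depended on the scaling. After quantile normalization the arrays read 636, 633 and 668 in Glt25d2 and 522, 618 and 543 in S100a10, and the difference was -0.21 (SE 0.12), which did not pass (limma adjusted p = 0.231, between 0.00482 and 0.297 over all alternatives). After centring, every Glt25d2 array lay above every S100a10 array, and Hltf was called lower, by -0.38 (SE 0.11, limma adjusted p = 0.0341). The call toward S100a10 also ended without Glt25d2 replicate 1 (0.39, limma adjusted p = 0.0724) and without Glt25d2 replicate 2 (0.39, limma adjusted p = 0.0774). The other probe sets, 1425996_a_at and 1451901_at, read 15.7 to 27.2 and 6.10 to 8.30, both with every Glt25d2 array above every S100a10 array but under 50, and were not tested.

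**Figure D2:**
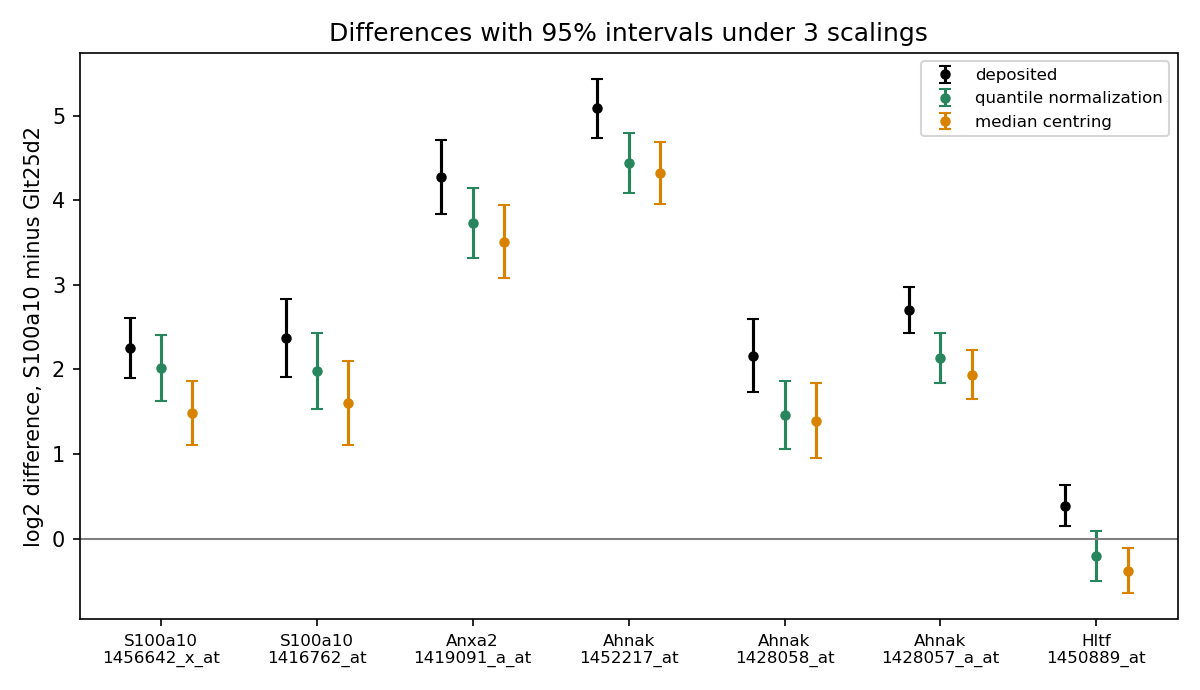
Log2 difference of S100a10 minus Glt25d2 for the 7 tested probe sets, with limma's 95% intervals, as deposited (black), after quantile normalization (green) and after median centring (orange). The 6 probe sets of S100a10, Anxa2 and Ahnak stay above 0 under each scaling, those of Ahnak against Glt25d2 readings under 50, whereas Hltf goes from 0.39 to -0.21 and -0.38.

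Of the 13 probe sets, 7 were tested and 6 lay under the limit of 50 in both group means. The tested ones were 2 of 3 for S100a10, 1 of 3 for Anxa2, 3 of 4 for Ahnak and 1 of 3 for Hltf. All 7 were called higher as deposited, against 44.2% of all probe sets. This count includes the 3 Ahnak probe sets that the filter itself selected and the 2 of S100a10, the driver gene. No support is drawn from it or from the counts that follow. After quantile normalization and after centring the 6 probe sets of S100a10, Anxa2 and Ahnak were still called higher, against 16.8% and 15.8% of all. Without Glt25d2 replicate 3 all 7 were called higher, where 55.0% of all were higher and 5.99% lower. By rank Anxa2 stood at percentile 98.7 and S100a10 at 93.0 and 93.8, with Hltf among the middle of the distribution. The rank of Ahnak, 99.3 for 1452217_at, rests on Glt25d2 readings under 50. With all values under 50 set to 50 it was 99.0, against 99.6 for Anxa2, and the other Ahnak probe sets stood at 32.3 and 30.9.

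**Figure D3:**
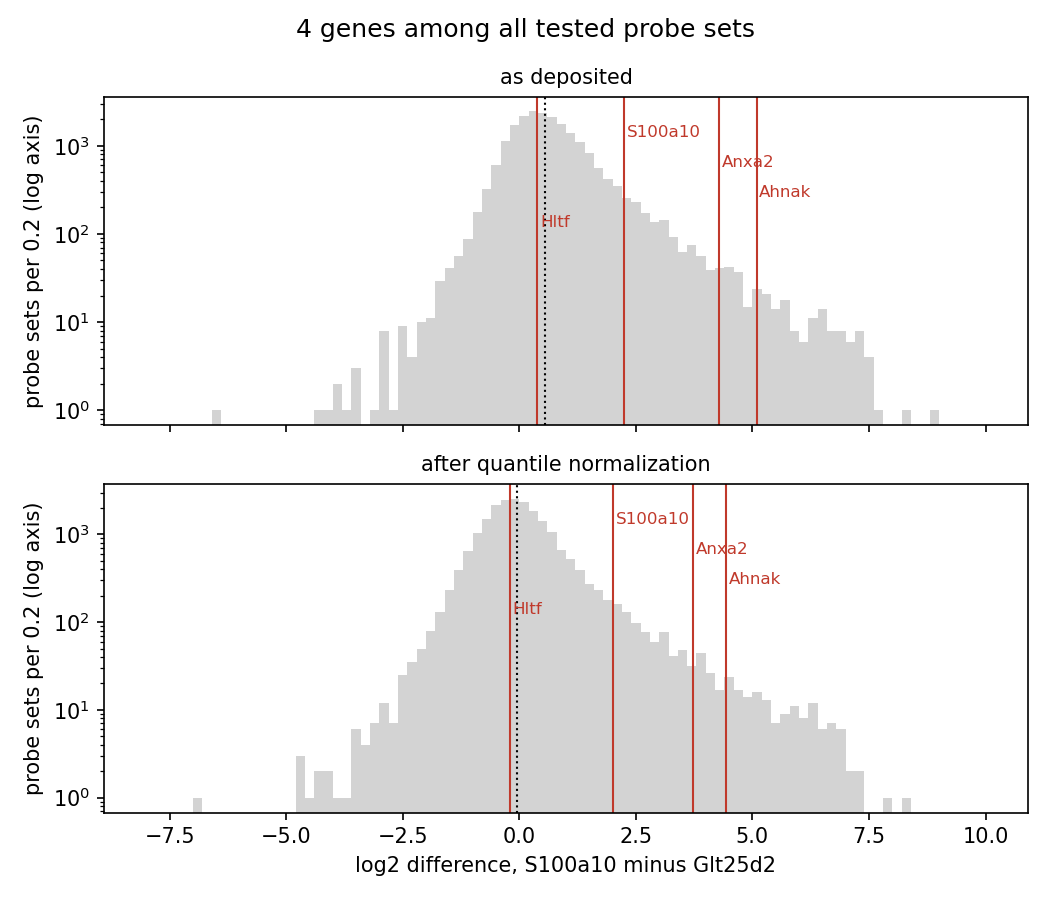
Number of tested probe sets (log axis) by log2 difference of S100a10 minus Glt25d2, as deposited (top) and after quantile normalization (bottom); red lines mark 1 probe set per member and the dotted line the median. The median moves from 0.55 to -0.058 and Hltf lies beside it in both panels, while S100a10, Anxa2 and Ahnak, the last against Glt25d2 readings under 50, stay in the right tail.

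Ratios between 2 genes within 1 array do not depend on the scale of that array. Each is given here relative to its own mean in the Glt25d2 arrays, as a log2 value, since levels of different probe sets cannot be compared. The ratio of Anxa2 to Hltf was 4.13, 3.89 and 3.64 in the S100a10 arrays and -0.22 to 0.16 in the Glt25d2 arrays. The ratio of S100a10 to Hltf was 1.93, 1.95 and 1.69 against -0.041 to 0.074. Both ratios were thus higher in every S100a10 array, which shows unequal change and not which gene of a pair changed. The ratio of S100a10 to Anxa2 was -2.19, -1.94 and -1.95 in the S100a10 arrays against -0.20 to 0.29, so Anxa2 gained more than S100a10, by a difference of -2.03 in their log2 ratio. Ahnak gained more than Hltf, by 4.70, or by 3.00 with values under 50 set to 50. Ahnak against Anxa2 could not be ordered, because the difference of -0.81 in the ratio of Anxa2 to Ahnak turned to 0.89 in that setting. An exact permutation test gave p = 0.1 (2-sided) for each of the 6 pairs, adjusted p = 0.1, which is the smallest value that 3 against 3 arrays allow.

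**Figure D4:**
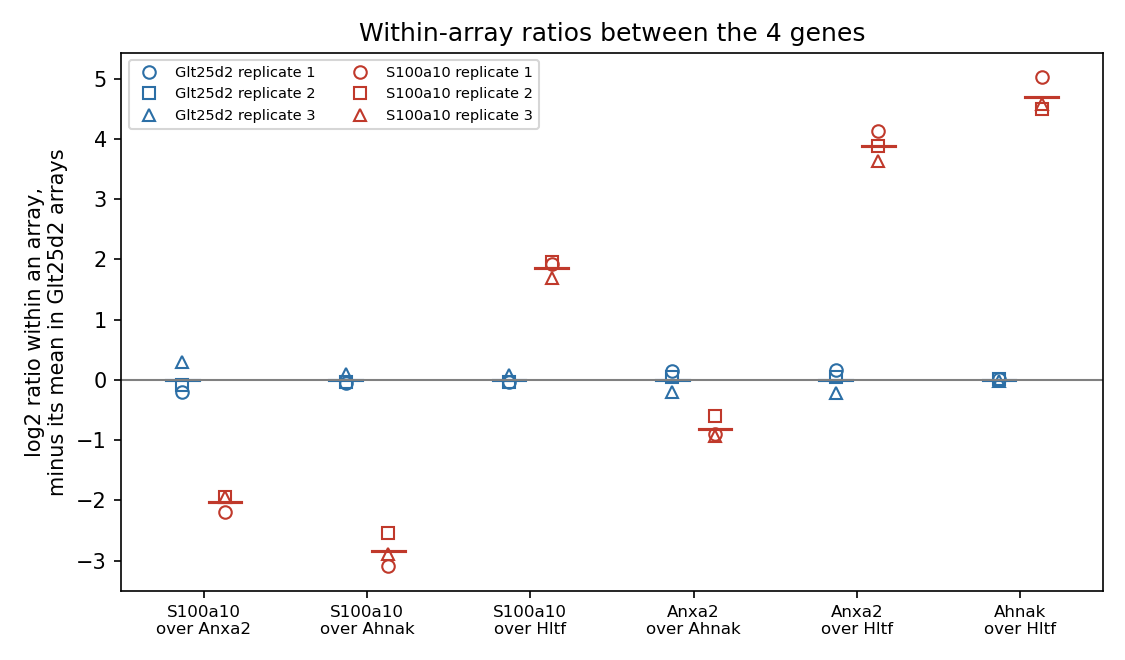
Log2 ratio of 2 genes within each array, minus the mean of that ratio in the Glt25d2 arrays, for the 6 pairs; symbols are arrays (blue Glt25d2, red S100a10) and bars group means. The groups do not overlap in any pair, and the pairs with Hltf rise by 1.86 to 4.70 whereas S100a10 over Anxa2 falls to -2.03.

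The stretches before the gene starts of Anxa2 and Ahnak, which differed most, and of Hltf, which did not follow them, are shown so that their promoters can be compared. RefSeq sequences for GRCm38.p6 were matched by symbol for 3 of the 4 members; S100a10 was not among them. Shown are the 250 bases before the start: chr9:69453433-69453682 for Anxa2, chr19:8989034-8989283 for Ahnak and chr3:20057561-20057810 for the first of 2 Hltf starts, all on the + strand, 5′ to 3′. Capitals mark matches on either strand to the GC box (GGGCGG), the CCAAT box (CCAAT), the AP-1 site (TGANTCA) and the TATA box (TATAAA).
Anxa2: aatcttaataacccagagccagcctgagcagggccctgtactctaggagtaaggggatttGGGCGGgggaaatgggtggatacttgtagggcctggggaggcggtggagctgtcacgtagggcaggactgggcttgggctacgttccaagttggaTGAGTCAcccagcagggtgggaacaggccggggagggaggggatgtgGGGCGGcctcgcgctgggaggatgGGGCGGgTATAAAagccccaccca
Ahnak: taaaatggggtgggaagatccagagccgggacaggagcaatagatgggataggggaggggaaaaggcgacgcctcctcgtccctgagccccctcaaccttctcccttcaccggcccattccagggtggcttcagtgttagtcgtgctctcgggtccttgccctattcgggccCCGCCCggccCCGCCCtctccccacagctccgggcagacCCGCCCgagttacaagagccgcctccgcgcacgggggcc
Hltf: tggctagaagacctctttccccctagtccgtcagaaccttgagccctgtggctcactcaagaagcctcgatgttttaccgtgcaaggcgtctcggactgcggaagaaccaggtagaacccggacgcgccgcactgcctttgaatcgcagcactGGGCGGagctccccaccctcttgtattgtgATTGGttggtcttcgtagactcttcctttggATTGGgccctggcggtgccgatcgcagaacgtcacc
Anxa2 held 3 GC boxes, an AP-1 match 95 bases and a TATA box 17 bases before the start, with no CCAAT box. Ahnak held 3 GC boxes, at 78, 68 and 39 bases, and none of the others. The window of the first Hltf start held 1 GC box and 2 CCAAT boxes. That of the second, chr3:20058041-20058290, not shown, held no GC box, 2 CCAAT boxes and a TATA box 207 bases before the start. Among all 32851 such windows in the table, 32.7% held a GC box, 33.8% a CCAAT box, 6.75% an AP-1 match and 12.4% a TATA box. The share of G and C was 62.4% in Anxa2, 66.4% in Ahnak, and 58.0% and 62.4% at the Hltf starts, against a median of 52.4%. A match describes the letters only, and a missing one says only that they are not in this window.

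A BAC can also carry genes next to its driver, so the 3 nearest protein-coding genes on either side of S100a10 that have a probe set of their own were read. Tchh, which encodes the hair-follicle protein trichohyalin, read 76.2, 69.8 and 123 in Glt25d2 and 897, 977 and 1048 in S100a10 arrays. It rose by 3.48 (SE 0.23, limma adjusted p = 1.45e-04), and the rescalings gave 2.77 (quantile) and 2.72 (centring). Them4, a thioesterase gene, read 942, 876 and 1185 against 924, 842 and 799 and did not pass, with a difference of -0.22 (SE 0.15, limma adjusted p = 0.267). It was called lower after quantile normalization, at -0.73, and after centring, at -0.99. Tchhl1, Rptn, Tdpoz1 and Them5 lay under 50 in every array, between 6.63 and 29.5. Whether any of these genes lies on the transgene was not tested.

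Genes around the complex were read from 6 lists by role, with 1 probe set per gene. Of 63 genes listed 41 were tested, and 15 (36.6%) rose while none fell, against 44.4% and 4.5% of all genes tested. Among the 15, Serpinf2, Ahnak2, Myof, Cavin1 and Egfr passed the filter only through the S100a10 arrays. The share of rises is thus close to that of all genes, and no support is drawn from it. After quantile normalization 9 of the 41 were higher and 5 lower, where 18.4% of all genes were called in each direction. After centring 8 were higher and 13 lower, where 16.4% and 31.3% were. Several list genes were low in Glt25d2 replicate 3, which was also the array least like its replicates over all probe sets. Without that array 21 of the 41 were higher and 3 lower, against 55.0% and 6.13% of all genes. With quantile normalization added 10 were higher and 10 lower, against 23.7% and 23.0%. The lists are therefore described one by one, each beside the median difference of 0.56 of all genes, or 0.50 with genes under 50 throughout a group put at their bound.

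Receptors and channels that p11 carries to the membrane gave no stable difference. Of 10 listed 4 were tested, 2 rose, and the median was 0.85. Htr1b, the serotonin receptor first shown to bind p11, read 300.4, 332 and 228 in Glt25d2 and 528, 419 and 452 in S100a10 arrays. It rose by 0.71 (SE 0.18, limma adjusted p = 0.0205), but the rescalings gave 0.017 (quantile) and -0.055 (centring), and the call ended without S100a10 replicate 1 or 3. Kcnk3, a two-pore potassium channel gene, rose by 0.99 (SE 0.23, limma adjusted p = 0.0149), or 0.084 and 0.22 after the rescalings, without a call, and its call also ended without S100a10 replicate 2 or 3. Asic1, an acid-sensing channel gene, read 585, 557 and 78.3 against 743, 1011 and 875 and did not pass (1.56, SE 0.81). The low reading was that of Glt25d2 replicate 3, and without it Asic1 differed by 0.61 and passed. Grm5, a glutamate receptor gene, read 2443, 2472 and 189 against 1305, 1393 and 2108 and did not pass (0.58, SE 1.05). Without the same array it took the other sign and was called lower, at -0.65. Htr1d, Htr4, Scn10a, Trpv6 and Ccr10 lay under 50 in every array.

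Of the plasminogen system, whose activation annexin A2 and p11 assist at the cell surface, 4 of 10 listed genes were tested, 2 rose, and the median was 1.31, or 0.69 with Serpinf2 at its bound. Plgrkt, a plasminogen receptor gene, read 175, 175 and 166 against 381, 331 and 391 and rose by 1.09 (SE 0.11), without a call at 0.33 and 0.32 after the rescalings. Serpinf2, the gene of an inhibitor of plasmin, was under 50 in every Glt25d2 array and at least 1.11-fold higher, a difference that did not pass with values under 50 set to 50. Plat, tissue plasminogen activator, read 596, 742 and 35.3 in Glt25d2 and 617, 1029 and 936 in S100a10 arrays and did not pass (1.75, SE 1.20). Without Glt25d2 replicate 3, again the low array, Plat differed by 0.34. Serpini1, which encodes neuroserpin, an inhibitor of Plat's product, read 12457, 13985 and 1038 against 6215, 7006 and 7731 and did not pass (0.30, SE 1.03). Without that array it was called lower, at -0.92. Plg, Plau, Plaur and Serpinb2 lay under 50 in every array.

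Subunits of the L-type calcium channel, which Ahnak binds through a beta subunit, gave 1 rise among 5 tested of 8 listed, with a median of 1.04. Cacnb1, a beta subunit gene, read 388, 369 and 396 against 812, 960 and 927 and rose by 1.22 (SE 0.11, limma adjusted p = 3.85e-04). It was also called at 0.63 after quantile normalization and 0.45 after centring. The other beta subunit genes tested, Cacnb2 at 0.23 (SE 0.19) and Cacnb4 at 0.50 (SE 0.20), did not pass. Neither was called after a rescaling, and Cacnb4 passed at 0.67 without Glt25d2 replicate 3. The pore genes Cacna1c at 1.35 (SE 0.69) and Cacna1d at 1.04 (SE 0.77) did not pass. Their Glt25d2 replicate 3 was low, 48.0 for Cacna1c and 17.3 for Cacna1d. Leaving that array out gave 0.55, which passed, for Cacna1c and 0.14 for Cacna1d.

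Of 9 relatives of Ahnak and genes of membrane repair and caveolae 5 were tested and 5 rose, but Ahnak2, Myof and Cavin1 passed the filter only through the S100a10 arrays. The median was 0.94 with these 3 at their bounds and 2.69 with their fitted values, which rest on readings under 50. Ahnak2, the closest relative of Ahnak, read 5.07, 4.94 and 5.07 against 61.6, 63.2 and 65.3 and was at least 1.27-fold higher. Myof, the gene of the ferlin myoferlin, was at least 1.90-fold higher, and Cavin1, a coat protein of caveolae, at least 4.45-fold. Cav1, the main caveolin gene, read 270.2, 234 and 191 against 701, 650.2 and 489 and rose by 1.40 (SE 0.20, limma adjusted p = 0.00241). Capn2, a calpain gene, read 1026, 1065 and 1065 against 2063, 2253 and 1770.4 and rose by 0.94 (SE 0.12, limma adjusted p = 0.00164), without a call at 0.17 after centring. Dysf, Trim72 and Capn1 lay under 50 in every array.

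Hltf adds ubiquitin chains to the replication clamp with the enzymes of DNA damage tolerance. Of 16 listed genes, 15 lay below the median of 0.56, which by definition splits all genes evenly. The list was chosen with earlier results of these data known, so no support is drawn from this count. Against the median of 0.50 with genes at their bounds, Rad18, at 0.52, lay above as well. All 16 listed were tested, 2 rose, and the median difference was 0.088. Rev1, a translesion polymerase gene, read 246, 267 and 296 against 494, 465 and 460.4 and rose by 0.81 (SE 0.11). Rad18, the ubiquitin ligase gene of the same clamp, rose by 0.52 (SE 0.12) from 56.7, 55.9 and 65.8 to 93.8, 78.1 and 83.5, and Pcna, the clamp itself, differed by 0.49 (SE 0.20) and did not pass, though it passed at 0.57 without Glt25d2 replicate 3. None held its call after a rescaling, and Rad18 took negative signs, -0.42 and -0.25, as Pcna did after centring, at -0.27. The call of Rad18 ended without Glt25d2 replicate 1 or 2. After quantile normalization none was higher and 5 were lower, where 18.4% of all genes were called in each direction. The 5 were Shprh, the close relative of Hltf, at -0.91, Polk at -0.93, Zranb3 at -0.75, Rev3l at -0.61 and Wdr48 at -0.51. After centring 11 were lower, where 31.3% of all genes were.

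Of receptors and mediators of signals known to raise S100a10, 7 of 10 were tested, 3 rose, and the median was 0.68, also with Egfr at its bound. Tgfa, a ligand of the epidermal growth factor receptor, read 48.3, 64.9 and 49.1 against 180.3, 190.0 and 148 and rose by 1.68 (SE 0.17). The receptor gene Egfr was under 50 in every Glt25d2 array and at least 2.15-fold higher. Both were also called after each rescaling, but Egfr passed the filter only through the S100a10 arrays, so its calls rest on Glt25d2 readings under 50 as deposited. Ifngr1, a receptor chain for interferon gamma, rose by 0.72 (SE 0.17), but took negative signs after the rescalings, -0.18 and -0.052, and its call ended without S100a10 replicate 1 or 2. Bdnf, a neurotrophin gene, read 928, 894 and 320.5 against 391.5, 359 and 511 and did not pass as deposited (-0.63, SE 0.45), but was called lower after centring, at -1.40, and without Glt25d2 replicate 3, at -1.13. Nr3c1, the glucocorticoid receptor gene, differed by 0.15 (SE 0.19) without a call and was called lower after centring, at -0.62.

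**Figure D5:**
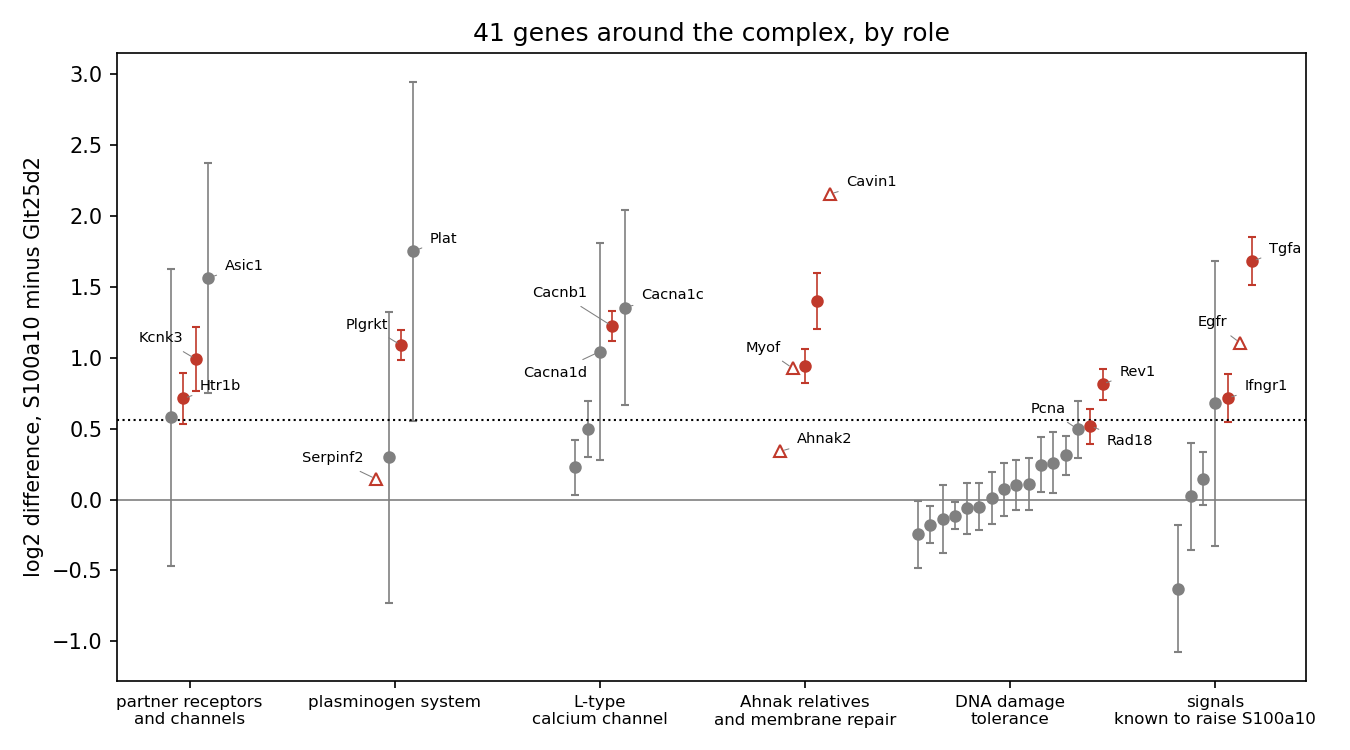
Log2 difference of S100a10 minus Glt25d2 (points, with limma's SE) for the 41 tested genes of the 6 lists; open triangles are lower bounds for genes under 50 in every Glt25d2 array, red symbols passed at an adjusted p under 0.05, grey did not, and the dotted line is the median of all genes, 0.56. Of the Ahnak relatives and membrane repair genes, Cav1 and Capn2 lie above the line, as do the bounds of Cavin1, at 2.16, and Myof. The bound of Ahnak2, at 0.34, lies below it and, being a lower bound, does not place the gene. Of the 16 genes of DNA damage tolerance 15 lie below the line.

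For each member, the 3 genes with the most similar profile were taken by the smallest root mean square difference of log2 values over the 6 arrays, each profile centred on its own mean, among 11817 genes. Nearest to S100a10 were 9030612E09Rik at 0.037, Ltb, a lymphotoxin gene, at 0.063 and Ptpn14, a phosphatase gene, at 0.068. Nearest to Anxa2 were Dab2, a clathrin adaptor gene, at 0.10, the transcription factor gene Zic2 at 0.11 and the small heat-shock gene Hspb2 at 0.12. Dab2 read 61.4, 62.6 and 53.9 in Glt25d2 and 1243, 1455 and 892 in S100a10 arrays, with replicate 3 lowest in each group as for Anxa2. Nearest to Ahnak were Gstm2, a glutathione transferase gene, at 0.022, Copz2, a coatomer gene, at 0.046 and Kank2, an actin regulator gene, at 0.10. Nearest to Hltf were Sod1, superoxide dismutase, at 0.028, Tut1 at 0.028 and Thoc1, of the RNA export machinery, at 0.039. In every Glt25d2 array 9030612E09Rik, Ltb, Zic2, Hspb2, Gstm2 and Kank2 lay under 50, as Ahnak did. Copz2 read 49.8 to 52.5 there, so many of these likenesses rest partly on readings at or near background. These are descriptions of 6 arrays. With quantile normalization 4 of the 12 were still among the nearest 3, 2 were with a pseudocount of 16, 4 with values under 50 set to 50 and 4 to 9 with 1 array left out. Centring shifts all genes of an array alike and so leaves the order as it is.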

How the data were processed

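The authors deposited linear GCRMA intensities, per the submitters' processing notes, for 3 S100a10 and 3 Glt25d2 arrays; GCRMA corrects background by probe base composition, normalizes quantiles among the arrays it is run on and summarises probe sets. Its version, and whether the 6 arrays were run together, are not given in the sources used; the groups' medians differ, and the direction of Hltf depends on the scaling. The series text proposes 50 as a lower limit. After 64 controls were dropped from 45101 probe sets, 34945 named 1 gene, 932 several and 9160 none. Log2 values, with no pseudocount, of the 21291 probe sets averaging 50 or more in either group entered one 2-sided limma model (version 3.58.1, R 4.3.3, lmFit then eBayes) over all 6 arrays with no block, at a Benjamini-Hochberg threshold of 0.05, tested on simulated data. Each gene took the tested probe set with the greatest mean. If all arrays of a group were under 50, its fold is a bound against 50 on the deposited scale. Named list genes were the 3 largest absolute differences per list and those behind counts of up to 5. For markers they were the largest and smallest of the meningeal and neuronal lists and the smallest of the mural and fibroblast list. Grm5, Serpini1, Cacnb2, Cacnb4, Bdnf, Nr3c1, Gfap, Tmem119, Ttr, Rarres2, the 5 lower genes of DNA damage tolerance and the genes under 50 were named after their values were seen. Members and lists were chosen with earlier results of these data known. The labels call the arrays biological replicates, and p-values measure only the spread between them; their number limits the precision. Alternatives were other filters, a pseudocount of 16, a floor of 50, both rescalings (over all 45037 probe sets), the replicate number as block, a trended prior, array weights, 1 probe set per gene and each array left out. Python 3.11.15, pandas 2.3.3, numpy 2.4.6, scipy 1.17.1 and matplotlib 3.10.9 were used.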

Additional observations from a re-analysis of the deposited data

How the results depend on the processing

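The tested probe sets of S100a10 and of Anxa2, and 1452217_at of Ahnak, kept their direction and their call under every alternative that gave a value; with both group means at 50 or more no Ahnak probe set remained to be tested. With values under 50 set to 50, the Ahnak probe sets 1428058_at and 1428057_a_at were at 0.18 and 0.20 and did not pass. Hltf was -0.21 after quantile normalization, -0.38 after centring and -0.18 after quantile normalization without Glt25d2 replicate 3, an alternative chosen after seeing the data; with the replicate number as a block it was 0.39 and did not pass (limma adjusted p = 0.0889), and with 1 array left out it lay between 0.33 and 0.42. The labels do not say whether the replicate numbers pair the arrays. Same-numbered arrays had correlations of deviations of -0.45, 0.22 and -0.24, and the others -0.40 to 0.45. With 3 arrays per group these values cannot settle it. The block gave 558 probe sets lower. The number of probe sets higher, 9405, was 19640 without a filter, 3574 after quantile normalization, 3363 after centring, 5285 with 1 probe set per gene and 4771 after quantile normalization without Glt25d2 replicate 3. The number lower, 934, was 5131, 4128, 6447, 542 and 5119 in these settings, 1537 with array weights and 610 to 1276 with 1 array left out. Of the 41 list genes, 15 higher became 9 after quantile normalization and 8 after centring; 0 lower became 5 and 13, 1 with array weights, 0 to 3 with 1 array left out and 10 after quantile normalization without Glt25d2 replicate 3. The ratio of Anxa2 to Ahnak turned to 0.056 with a pseudocount of 16 and 0.89 with values under 50 set to 50. Of the 41 list genes, 18 had the other sign than as deposited after centring, 10 after quantile normalization, 7 without Glt25d2 replicate 3 and 17 with that array out and quantile normalization. Of the genes named in the text, those with the other sign after centring were Htr1b at -0.055, Grm5 at -0.19, Serpini1 at -0.47, Cacnb2 at -0.54, Cacnb4 at -0.27, Rad18 at -0.25, Pcna at -0.27, Zranb3 at -0.70, Nr3c1 at -0.62, Ifngr1 at -0.052, Sod1 at -0.36, Tut1 at -0.38 and Thoc1 at -0.41. After quantile normalization they were Cacnb2 at -0.52, Rad18 at -0.42, Zranb3 at -0.75, Nr3c1 at -0.20, Ifngr1 at -0.18, Tut1 at -0.38 and Thoc1 at -0.15. With quantile normalization and Glt25d2 replicate 3 left out they were Kcnk3 at -0.072, Htr1b at -0.083, Grm5 at -1.04, Plat at -0.20, Serpini1 at -1.14, Cacna1c at -0.13, Cacna1d at -0.66, Cacnb2 at -0.30, Rad18 at -0.27, Zranb3 at -0.51, Nr3c1 at -0.054, Ifngr1 at -0.24, Tut1 at -0.31 and Thoc1 at -0.13. With array weights they were Grm5 at -0.55, Serpini1 at -0.91 and Polk at 0.14. With 1 array left out, Grm5 lay between -0.65 and 1.20, Serpini1 between -0.92 and 0.95, Nr3c1 between -0.013 and 0.32, Polk between -0.21 and 0.060 and Zranb3 between -0.078 and 0.26. The cause was not tested.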
